A study of Mus musculus with 12 samples.

Results

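Genes for the subunits, assembly chaperones and activators of the proteasome were examined in RNA-seq counts of mouse skin. The genes were the protein-coding rows of the count table with symbols that begin with Psm, followed by a, b, c, d or e and a number. Psmb8 and Psmb9 were left out. This gave 41 genes of the 52636 in the table, and 39 of them were among the 17993 genes that passed the filter on low counts. The other 2 were close to zero. Psma8, a testis-specific alpha subunit, had 0 to 5 counts per library, and Psmb11, the beta subunit of the thymus proteasome, had 0 to 3 counts.

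The study asked how rapamycin, an inhibitor of the kinase complex mTORC1, acts on rosacea-like inflammation caused by LL37, the active peptide of the human antimicrobial protein cathelicidin. All mice were of the BALB/c strain with no engineered allele, and the model was described for mice of 8 weeks of age. The back was shaved and was injected into the dermis with LL37 or with vehicle 2 times a day for 2 days. There were 4 groups of 3 libraries: vehicle (control), vehicle and rapamycin (control+RAPA), LL37 (LL37), and LL37 and rapamycin (LL37+RAPA). Rapamycin was given in the study at 4 mg/kg per day, and the schedule for the sequenced mice is not stated in the sources used here. All mice received injections into the skin, so no group is untouched skin, and the model is an acute reaction to a peptide.

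The proteasome is the protease that degrades proteins tagged with ubiquitin. Its core particle, the 20S proteasome, is a barrel of outer alpha rings and inner beta rings, and 3 of the beta subunits, encoded by Psmb6, Psmb7 and Psmb5, cleave the substrate. The 19S regulatory particle caps the barrel, binds ubiquitin, unfolds the substrate with a ring of ATPases and feeds it into the core. In immune cells and in tissue exposed to interferon, inducible catalytic subunits such as that encoded by Psmb10 replace the constitutive ones and form the immunoproteasome, which favours peptides suited to antigen presentation. The transcription factor NRF1, encoded by Nfe2l1, drives the subunit genes together, and mTORC1 signaling has been linked to their expression.

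The libraries held 15734559 to 23271784 counts, so a count of 3 corresponded to 0.123 to 0.184 CPM. CPM are read counts relative to the total of the library, here after scaling by the trimmed mean of M-values (TMM). Differences are log2 fold changes with their standard error (SE) from edgeR's quasi-likelihood test over all 12 libraries, and a gene was called at an adjusted p (Benjamini-Hochberg over the 17993 genes) under 0.05. LL37 replicate 3 stood apart from the other LL37 libraries. Its summed neutrophil markers were at 343 CPM against 2090 and 3004 CPM, its summed skeletal muscle markers at 1198 CPM against 162 and 200.3 CPM, and 13 of the 39 proteasome genes were above the control mean in it against 33 and 30. Counts of called proteasome genes are therefore given with and without this library. Its proteasome values were among the reasons for setting it apart. Larger differences in the fits without it thus follow in part from that choice and are not separate evidence.

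The makeup of the tissue differed between groups as well. The sum of 32 skeletal muscle genes ran from 47932 to 68527 CPM in control, from 50199 to 87466 CPM in control+RAPA, from 162 to 1198 CPM in LL37 and from 4130 to 8924 CPM in LL37+RAPA skin. Of the 30 muscle genes tested, 30 were lower in LL37 than in control and 30 higher in LL37+RAPA than in LL37. The sum of 10 adipocyte markers was 1738 to 3082 CPM in control, 2126 to 4968 CPM in control+RAPA, 508 to 977 CPM in LL37 and 3057 to 3238 CPM in LL37+RAPA skin, with 9 of 10 called lower with LL37 and 10 of 10 higher in LL37+RAPA against LL37 skin. That of 10 neutrophil markers was 64.3 to 147 CPM in control, 102 to 109.5 CPM in control+RAPA, 343 to 3004 CPM in LL37 and 218 to 609 CPM in LL37+RAPA skin. Sums of 10 macrophage markers (792 to 1369 CPM in control, 2101 to 2439 CPM in LL37) and of 6 genes of activated keratinocytes (1346 to 2748 and 6888 to 11511 CPM) were higher in LL37 skin, whereas the ranges of 10 basal and differentiated keratinocyte genes overlapped (29000.0 to 37660 and 32187 to 44835 CPM). In LL37+RAPA skin the macrophage sum was 1782 to 2903 CPM and that of the activated keratinocyte genes 2020.1 to 3166 CPM. Sums of T cell markers were 100.1 to 129 CPM in control, 65.8 to 89.7 CPM in control+RAPA, 225 to 384 CPM in LL37 and 164 to 226 CPM in LL37+RAPA skin. Gene by gene, 6 of 10 macrophage markers were called lower in LL37+RAPA than in LL37 skin (median log2 -0.71). So were 4 of 9 tested neutrophil, 5 of 8 tested T cell and 5 of 6 activated keratinocyte genes, against 11.8% of all genes. In these lists 0 genes were called higher. No listed marker was at 0 in all libraries. The part of these shifts in the results below was not tested, and in bulk tissue fewer cells of a type and less RNA per cell cannot be told apart.

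The proteasome genes together took 0.437% ± 0.0229 of all counts in control skin (SD, n = 3), 0.420% ± 0.00988 in control+RAPA, 0.485% ± 0.0355 in LL37 and 0.429% ± 0.0106 in LL37+RAPA skin. With the muscle genes taken out of the totals, the shares were 0.463% ± 0.0214 in control, 0.446% ± 0.00469 in control+RAPA, 0.486% ± 0.0353 in LL37 and 0.432% ± 0.0113 in LL37+RAPA skin. On that scale LL37 lay closer to control and LL37+RAPA farther below control, while the distance between LL37 and LL37+RAPA skin hardly moved. In single libraries the median log2 ratio of the 39 genes to the control mean was 0.13, 0.22 and -0.06 in LL37 and -0.08, -0.11 and -0.16 in LL37+RAPA skin. It was -0.08, 0.03 and 0.02 in control and 0.01, -0.01 and -0.03 in control+RAPA skin. LL37 replicates 1 and 2 were thus the highest libraries, the LL37+RAPA libraries were among the lowest, and LL37 replicate 3 lay within the range of the control libraries.

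**Figure D1:**
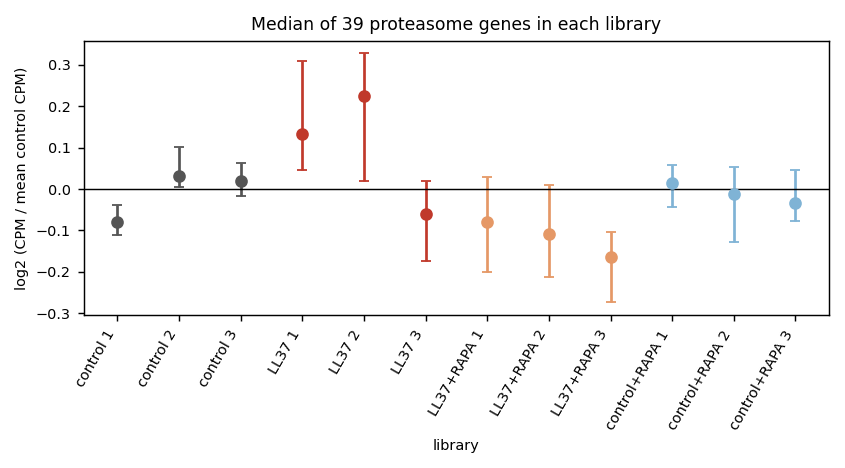
Median over 39 proteasome genes of the log2 ratio of CPM to the mean control CPM (y axis) in each of 12 libraries (x axis), with whiskers from the lower to the upper quartile of the genes. LL37 replicates 1 and 2 were at 0.13 and 0.22 and LL37 replicate 3 at -0.06.

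In control skin the genes of the constitutive particle were expressed at levels of one order of magnitude. On the scale of CPM per kb of exon, which allows levels of different genes to be compared, the 31 genes of the 20S rings and the 19S particle ran from 15.2 for Psmd1 to 136 for Psmc5, a ratio of 8.96. The highest were Psmc5, an ATPase (136 ± 9.42, SD, n = 3), Psma6, an alpha subunit (127 ± 3.48), and Psmb4, a beta subunit (93.8 ± 4.96). Psmc5 and Psma6 did not differ beyond their spread, and neither did Psmc1 (81.2 ± 2.89) and Psmb6 (79.8 ± 5.02), which came next. The chaperones of the 19S base stood at the low end, with Psmd5 at 4.38 ± 0.267 and Psmd9 at 3.94 ± 0.322 (these proteins help to build the particle and are absent from its finished form). Psmb10 was at 22.9 ± 5.50 and its constitutive counterpart Psmb7 at 31.0 ± 1.89. These levels depend on the length used, and per kb of the longest transcript the median of the 39 genes was 62.5 in place of 41.3, with Psmb4 first in the order.

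**Figure D2:**
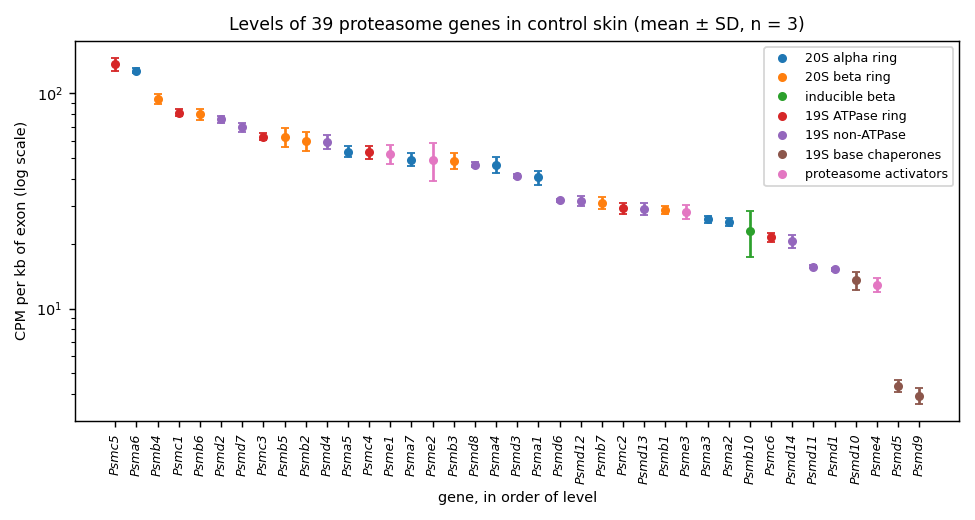
Mean control level of 39 proteasome genes in CPM per kb of exon (y axis, log scale; bars are SD, n = 3), in order of level and coloured by role. Psmc5 is highest at 136 and the base chaperones Psmd5 and Psmd9 are lowest at 4.38 and 3.94.

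The first comparison asked how the proteasome genes responded to LL37. The response was small and mixed by role. In LL37 against control skin 6 of the 39 genes were higher, against 21.0% of all tested genes, and 2 were lower, against 21.6%. Their log2 fold changes ran from -0.41 to 0.77, with a median of 0.12 where that of all tested genes was 0.00, and 26 of the 39 were positive. Libraries of both groups did not overlap for 6 genes that were higher (23.8% of all genes) and 3 that were lower (25.9%). None of the 39 also passed the study's limit of an absolute log2 fold change above 1, which 19.5% of all genes passed. The shares of proteasome genes called, 15.4% and 5.13%, were below those of all genes in both directions.

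The largest difference was in Psmb10 (ENSMUSG00000031897, GRCm38 chromosome 8, 105935735 to 105938444, minus strand), which encodes the inducible counterpart of the trypsin-like subunit. Its CPM were 42.3, 28.4 and 46.3 in control, 23.3, 21.3 and 24.1 in control+RAPA, 76.4, 70.5 and 52.9 in LL37, and 34.4, 37.4 and 33.3 in LL37+RAPA skin. Every LL37 library was above every control library, LL37+RAPA skin lay within the control range, and control+RAPA skin was the lowest group. Psmb10 rose by 70.7% in LL37 against control skin (log2 0.77, SE 0.17, edgeR adjusted p = 0.0043) and remained called in each of 20 alternative settings.

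The constitutive catalytic subunits were not called with all libraries, and their difference from Psmb10 was not tested. Psmb7, the trypsin-like subunit that the product of Psmb10 replaces, had 99.9, 105 and 113 CPM in control and 97.6, 91.8 and 87.0 CPM in LL37 skin, so the groups did not overlap but the difference was not called (log2 -0.20, SE 0.09, edgeR adjusted p = 0.105). Psmb5, the chymotrypsin-like subunit, had 50.4, 62.0 and 56.1 CPM in control and 64.3, 73.8 and 55.6 CPM in LL37 skin, and the groups overlapped (log2 0.20, SE 0.11, edgeR adjusted p = 0.172). Psmb5 was called higher without LL37 replicate 3 (log2 0.33, edgeR adjusted p = 0.024). Psmb6, the caspase-like subunit, had 144, 160.2 and 144 CPM in control and 152, 159 and 129 CPM under LL37 (log2 -0.03, SE 0.10, edgeR adjusted p = 0.850). None of the 7 constitutive beta subunits was called, and their median log2 fold change was 0.11. Of the inducible and the constitutive form of the trypsin-like subunit, Psmb10 passed the test and Psmb7 did not.

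Among the alpha subunits, which form the gate of the barrel, all 7 tested genes had positive log2 fold changes, from 0.08 to 0.32, and 2 were called. In LL37 replicate 3, however, Psma3, Psma4, Psma5, Psma6 and Psma7 were below their control means. The positive values of these genes came from LL37 replicates 1 and 2. Psma2 had 89.7, 97.5 and 90.8 CPM in control and 122, 125 and 99.3 CPM in LL37 skin, with no overlap between the groups (log2 0.32, SE 0.09, edgeR adjusted p = 0.018). Psma1 rose by 0.28 on the log2 scale (SE 0.09, edgeR adjusted p = 0.022). The call of each was lost without control replicate 1, control replicate 3 or LL37 replicate 1.

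The 19S particle did not move as a block. Of its 6 ATPase genes none was called and the median log2 fold change was -0.01. Of 11 non-ATPase genes 1 rose and 1 fell. Psmd14, the deubiquitinase that removes ubiquitin chains from substrates at the entry, had 53.4, 60.3 and 60.4 CPM in control and 82.3, 76.4 and 64.2 CPM in LL37 skin, where each library was above the control range (log2 0.36, SE 0.11, edgeR adjusted p = 0.018). Psmd4, one of the ubiquitin receptors, had 154, 171 and 176 CPM in control and 143, 143 and 120.1 CPM in LL37 skin, all below the control range (log2 -0.30, SE 0.09, edgeR adjusted p = 0.017). Psmd14 lost its call without control replicate 1 or LL37 replicate 1, and Psmd4 lost its call without LL37 replicate 3 or with scaling by library size alone. Of the 3 base chaperones, Psmd10, the oncoprotein gankyrin, rose (log2 0.36, SE 0.12, edgeR adjusted p = 0.030), and it lost its call without control replicate 1 or 3 or LL37 replicate 1 or 2. A fit of the control and LL37 libraries alone kept the calls of Psmb10, Psme3 and Psme4 and lost those of Psma1, Psma2, Psmd4, Psmd10 and Psmd14.

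The activators, which can cap the core in place of the 19S particle, held the clearest opposite changes. Psme3 encodes PA28 gamma, the nuclear activator, and had 76.5, 84.4 and 87.9 CPM in control and 122, 107 and 95.9 CPM in LL37 skin (chromosome 11, 101316213 to 101323537). All LL37 libraries exceeded the control range, and Psme3 rose by 0.39 on the log2 scale (SE 0.10, edgeR adjusted p = 0.0083). Psme4 encodes PA200, the large activator of the nucleus (chromosome 11, 30771726 to 30880361), and had 112, 98.7 and 113 CPM in control and 92.3, 75.6 and 76.6 CPM in LL37 skin. All LL37 libraries were below the control range, and Psme4 fell by 0.41 on the log2 scale (SE 0.10, edgeR adjusted p = 0.0061). The calls of Psme3 and Psme4 held in each of 20 alternative settings.

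The interferon-inducible pair Psme1 and Psme2, which together form PA28 alpha beta, was not called. Psme1 had 103, 125 and 118 CPM in control and 145, 126 and 115 CPM in LL37 skin (log2 0.16, SE 0.10, edgeR adjusted p = 0.230). Psme2 had 72.6, 106 and 80.0 CPM in control and 126, 109 and 87.9 CPM in LL37 skin (log2 0.32, SE 0.19, edgeR adjusted p = 0.197). The groups overlapped for both. Reads of Psme2 can be shared with its intronless copy Psme2b, which had a mean of 57.4 CPM in control and 61.8 CPM in LL37 skin. With the counts of both copies summed, the log2 fold change was 0.24 (edgeR adjusted p = 0.321).

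Without LL37 replicate 3, the count in LL37 against control skin was 14 higher and 1 lower of 39, with 24.7% and 23.1% of all genes called, and the median log2 fold change was 0.22. It fell to 2 higher without control replicate 1 or LL37 replicate 1 and to 3 higher without control replicate 3. The shares of all genes called are not given for those fits. Of the 8 genes called with all libraries, 7 were also called without LL37 replicate 3, and the 8 added genes were Psma4, Psma5, Psma6, Psmb2, Psmb5, Psmc4, Psmc6 and Psmd3. With scaling by library size alone the median of all genes moved by 0.09, and 12 proteasome genes were higher and 1 lower, with 25.5% and 17.8% of all genes called.

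**Figure D3:**
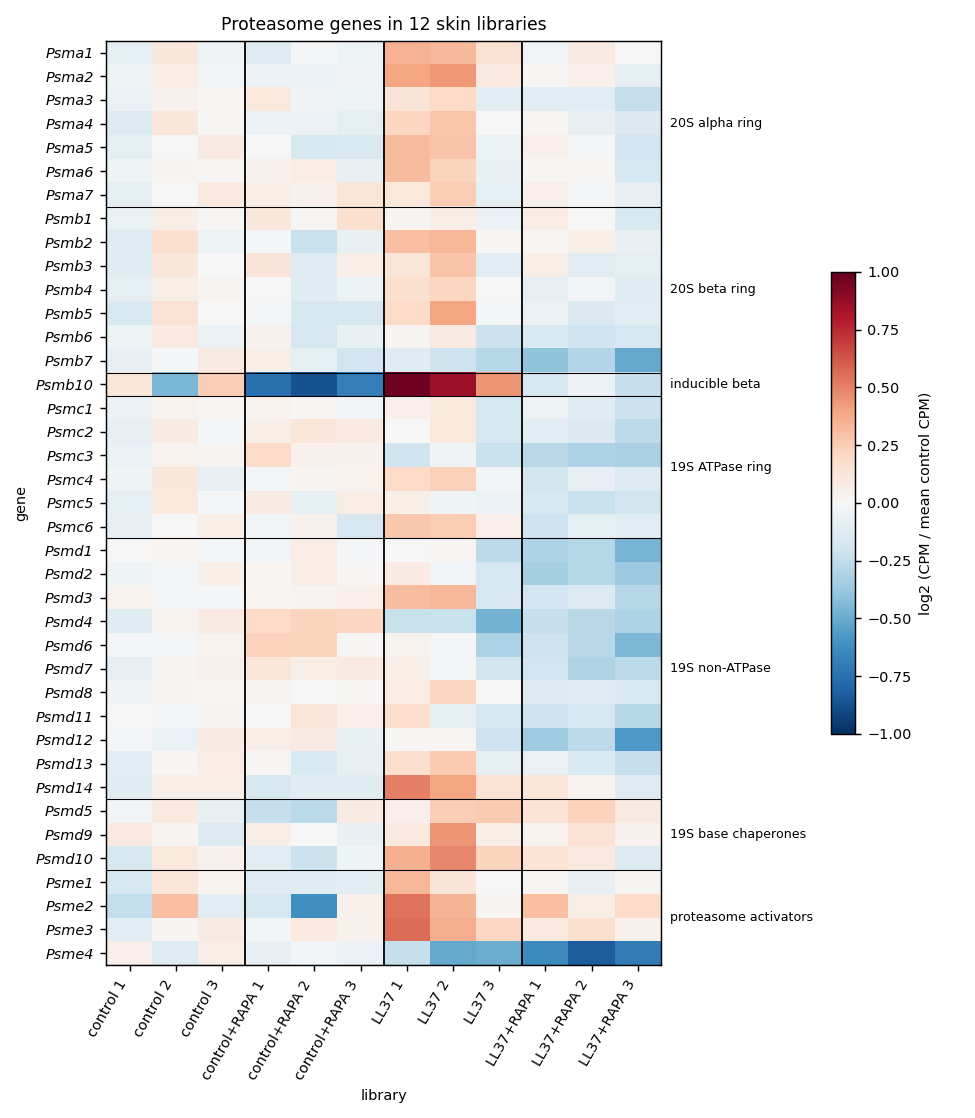
Log2 ratio of CPM to the mean control CPM (colour) for 39 proteasome genes (rows, by role) in 12 libraries (columns, with lines between the 4 groups). Psmb10 is the most strongly coloured row, and Psme4 is low in LL37 and LL37+RAPA skin. LL37 replicate 3 is lower than LL37 replicates 1 and 2 over the alpha and beta subunit genes, and below the control mean for most of them.

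The second comparison asked what rapamycin did in LL37-injected skin. Here the proteasome genes were shifted in one direction. The comparison shares the LL37 libraries with the one before, so the values of both are given side by side and are not independent. In LL37+RAPA against LL37 skin 38 of the 39 genes had negative log2 fold changes, where 49.6% of all tested genes did. Of the 39, 12 were lower (30.8%), against 11.8% of all genes, and 0 were higher, against 12.4%. With an unadjusted p under 0.05 there were 20 (51.3%, against 38.0% of all genes). DESeq2 called 17 lower and 0 higher, where it called 14.6% and 14.1% of all genes. The log2 fold changes ran from -0.93 to 0.03 with a median of -0.22, where the median of all tested genes was 0.00. Libraries did not overlap for 19 genes that were lower (17.6% of all genes) and for 0 that were higher (20.7%). No proteasome gene also passed an absolute log2 fold change above 1, which 10.1% of all genes did.

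The shift was spread over the roles, apart from Psmb10. The medians were -0.23 for 7 alpha subunits, -0.20 for 7 beta subunits, -0.16 for 6 ATPases, -0.27 for 11 non-ATPase subunits, -0.13 for 3 base chaperones and -0.23 for 4 activators. Called lower were 2 alpha subunits, 0 constitutive beta subunits, 2 ATPases, 6 non-ATPase subunits and 1 activator, and Psmb10. The one gene with a positive value was Psmd4 (142, 138 and 135 CPM in LL37+RAPA skin), with a log2 fold change of 0.03 (SE 0.09, edgeR adjusted p = 0.834).

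**Figure D4:**
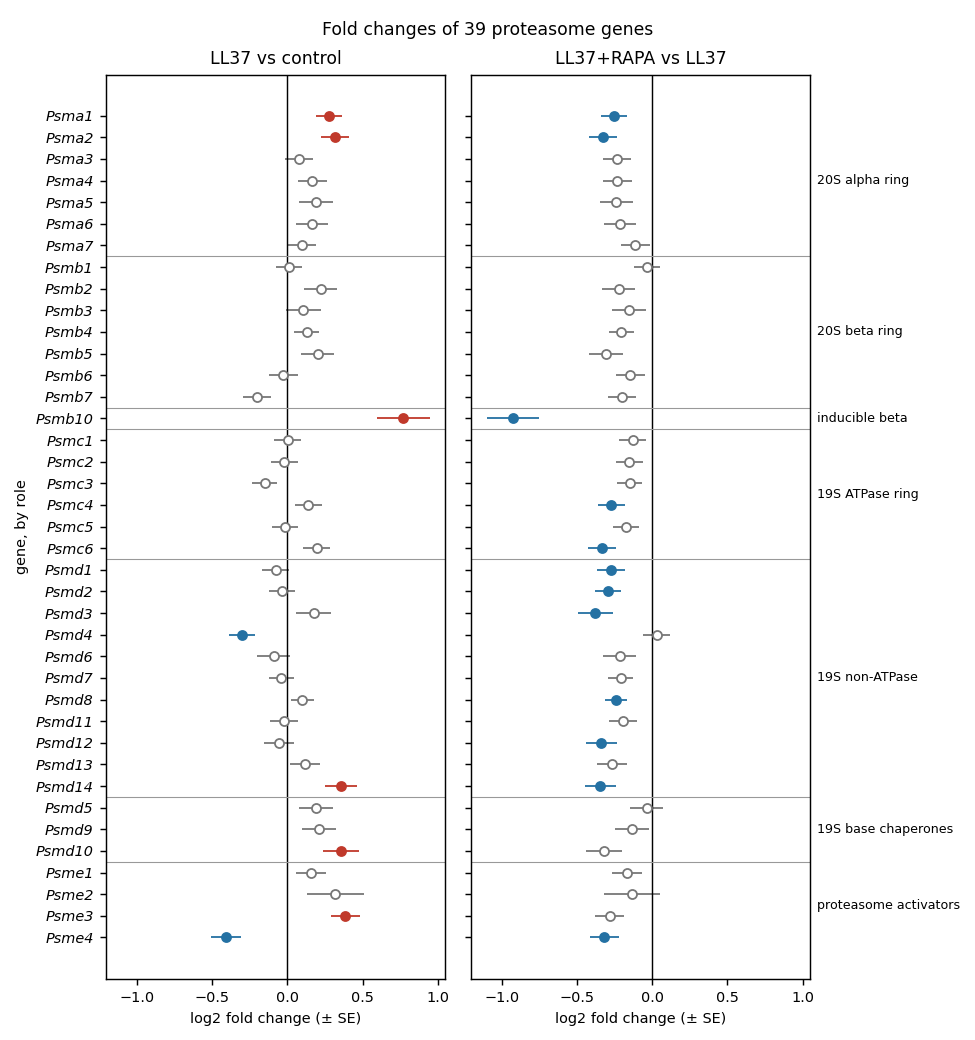
Log2 fold changes (x axis, bars are SE) of 39 proteasome genes (y axis, by role) in LL37 against control skin (left) and LL37+RAPA against LL37 skin (right). Filled points passed an adjusted p under 0.05, with 6 higher and 2 lower on the left and 12 lower on the right, and the comparisons share the LL37 libraries.

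Psmb10 again changed most. It fell by 0.93 on the log2 scale (SE 0.18, edgeR adjusted p = 0.0047), with each LL37+RAPA library below each LL37 library, and was called in each of 20 alternative settings. It was the one of the 12 for which this held.

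Psmc6, an ATPase of the 19S base, had 90.3, 89.3 and 77.3 CPM in LL37 and 64.7, 69.9 and 69.4 CPM in LL37+RAPA skin. The groups did not overlap, and Psmc6 fell by 0.33 on the log2 scale (SE 0.09, edgeR adjusted p = 0.022). Control skin (70.8, 75.2 and 78.4 CPM) was above each LL37+RAPA library and overlapped with LL37 skin. Control+RAPA skin (73.5, 77.0 and 66.5 CPM) overlapped with LL37+RAPA skin.

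Psma2 had 93.7, 95.8 and 86.8 CPM in LL37+RAPA skin, all below the LL37 libraries given above, and fell by 0.33 (SE 0.09, edgeR adjusted p = 0.028). Its LL37+RAPA libraries overlapped with the control libraries. Psmd14 had 63.1, 59.6 and 53.0 CPM in LL37+RAPA skin, again below each LL37 library, and fell by 0.34 (SE 0.11, edgeR adjusted p = 0.036).

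Psmd2, a scaffold of the 19S base and a docking site for ubiquitin shuttle proteins, had 323, 299 and 272 CPM in LL37 and 242, 251 and 237 CPM in LL37+RAPA skin. It fell by 0.29 (SE 0.08, edgeR adjusted p = 0.029), and the LL37+RAPA libraries were also below those of control (296, 302 and 318 CPM) and control+RAPA skin (309, 322 and 307 CPM). Psmd12, a structural subunit of the 19S lid, had 84.7, 85.2 and 72.7 CPM in LL37 and 65.5, 70.0 and 56.3 CPM in LL37+RAPA skin. It fell by 0.34 (SE 0.10, edgeR adjusted p = 0.033), and its control (82.8, 80.4 and 88.8 CPM) and control+RAPA libraries (87.5, 89.0 and 79.9 CPM) were higher than each LL37+RAPA library too.

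Psme4 fell further, from its LL37 level to 69.4, 60.5 and 66.4 CPM in LL37+RAPA skin (log2 -0.32, SE 0.10, edgeR adjusted p = 0.037), a call that was made in 8 of 20 alternative settings. Psme3, at 88.6, 92.9 and 85.5 CPM, was below each LL37 library and did not pass the test (log2 -0.28, SE 0.10, edgeR adjusted p = 0.056). The other calls were Psmd3 (-0.38), Psmd8 (-0.24), Psmc4 (-0.27), Psmd1 (-0.27) and Psma1 (-0.26), all with adjusted p from 0.037 to 0.050 in edgeR.

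The catalytic subunits of the constitutive core were not called by edgeR with all libraries. Psmb5 had 53.8, 50.7 and 51.9 CPM in LL37+RAPA skin, below each LL37 library (log2 -0.31, SE 0.11, edgeR adjusted p = 0.065). It was called lower by DESeq2 (adjusted p = 0.041) and by edgeR without LL37 replicate 3 (log2 -0.40, adjusted p = 0.012). Psmb7 had 80.3, 86.4 and 74.2 CPM and Psmb6 135, 129.9 and 133 CPM, with log2 fold changes of -0.20 and -0.15 (edgeR adjusted p = 0.144 and 0.293). Psme1 (117, 109 and 117 CPM) and Psme2 (106, 89.7 and 98.3 CPM) had log2 fold changes of -0.17 and -0.13 (edgeR adjusted p = 0.240 and 0.633), and with Psme2b summed the value for Psme2 was -0.15.

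The number of calls, unlike the direction, changed when single libraries were left out. Without LL37 replicate 3 it was 25 lower of 39, where 17.4% of all genes were lower, with 38 negative and a median of -0.31, and the 12 genes called with all libraries were all among the 25. It was 1 without LL37 replicate 1, LL37+RAPA replicate 1 or LL37+RAPA replicate 3, 2 without LL37 replicate 2, 3 without LL37+RAPA replicate 2, and 6 without control replicate 3 or control+RAPA replicate 3. The shares of all genes called in those fits are not given, so whether the fall is particular to the proteasome genes is not shown. A fit of the LL37 and LL37+RAPA libraries alone gave 1 lower of 39, where 6.95% of all genes were lower. The share called was then below that of all genes, while the median was -0.21 and 38 values were negative.

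**Figure D5:**
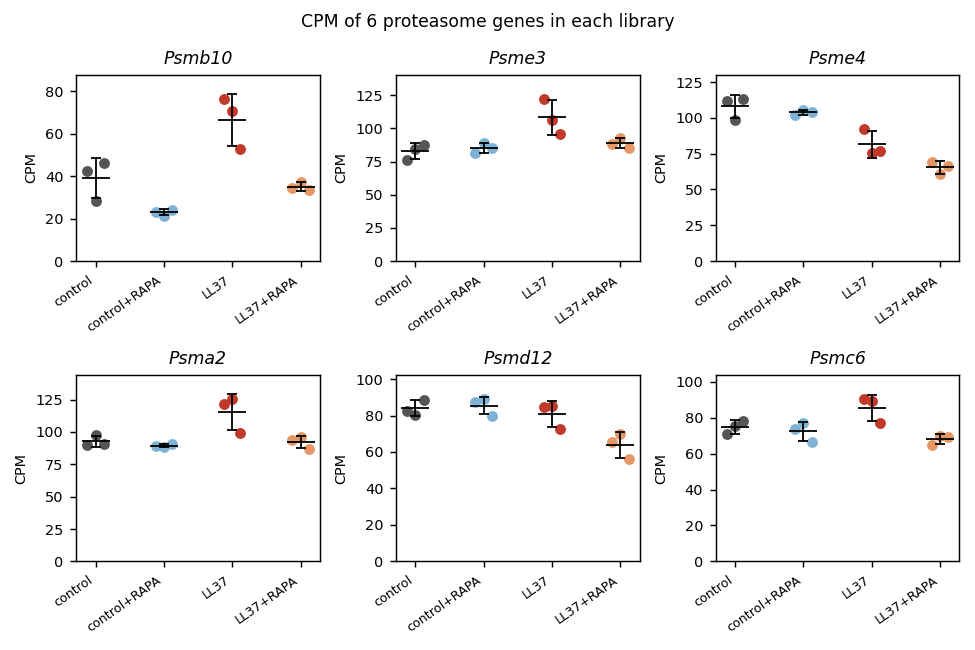
CPM (y axis) of 6 proteasome genes in each library (points), with the mean and SD of each group (n = 3). Psmb10, Psme3 and Psma2 are higher in LL37 than in control skin, Psme4 is lower in LL37 and lowest in LL37+RAPA skin, and Psmd12 and Psmc6 are lower in LL37+RAPA than in LL37 skin.

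Whether rapamycin acted differently in LL37 and in vehicle skin was tested with the interaction term. It was negative for 37 of the 39 genes, with a median of -0.20 where that of all genes was 0.01, but 0 genes were called higher, against 2.15% of all genes, and 0 lower, against 1.13%. With an unadjusted p under 0.05 there were 10 (25.6%, against 22.5% of all genes), and DESeq2 called 1 lower (Psmd2), where it called 3.75% of all genes lower. With scaling by library size alone the median was -0.09 and that of all genes 0.11, so that the distance between them remained at -0.20. Psmd2 had the value -0.33 (SE 0.12, edgeR adjusted p = 0.139), Psmd12 -0.36 (SE 0.14, edgeR adjusted p = 0.164) and Psmd7, a lid subunit that pairs with Psmd14, -0.30 (SE 0.12, edgeR adjusted p = 0.166). Psmd7 had 149, 160.4 and 162 CPM in control, 171, 164 and 167 CPM in control+RAPA, 164, 156 and 138 CPM in LL37, and 138, 128 and 131 CPM in LL37+RAPA skin. Without LL37 replicate 3, 9 genes were called lower, where 7.37% of all genes were. These were Psma2, Psmc4, Psmd1, Psmd2, Psmd3, Psmd6, Psmd7, Psmd12 and Psme3. The positive values were those of Psmd5, a base chaperone (0.09, SE 0.16), and Psme2 (0.09, SE 0.27). Psmd5 had 31.1, 33.8 and 30.0 CPM in control, 27.0, 26.2 and 33.6 CPM in control+RAPA, 32.8, 37.6 and 37.9 CPM in LL37, and 34.8, 37.1 and 33.7 CPM in LL37+RAPA skin.

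In vehicle-injected skin rapamycin gave no called proteasome gene. In control+RAPA against control skin 0 of the 39 were higher and 0 lower in edgeR, as were 0% and 0% of all tested genes, and the median log2 fold change was 0.01 with 19 negative values. The counts were also 0 and 0 without LL37 replicate 3. With an unadjusted p under 0.05 there were 2 (5.13%, against 8.65% of all genes), Psmb10 and Psmd4. Each Psmb10 library of control+RAPA skin was below each control library (log2 -0.77, SE 0.18, edgeR adjusted p = 0.345), and DESeq2 called it lower (adjusted p = 0.019). Psmd4 had 191, 195 and 193 CPM in control+RAPA skin, above each control library (log2 0.21, SE 0.09, edgeR adjusted p = 0.552). Psme1 had 105, 106 and 107 CPM, Psme2 77.0, 56.3 and 88.7 CPM, Psmb5 55.2, 50.2 and 50.3 CPM and Psmb6 154, 133 and 142 CPM in control+RAPA skin, with edgeR adjusted p of 0.787, 0.790, 0.821 and 0.900.

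LL37+RAPA skin was also set against both groups without LL37. Against control, 0 proteasome genes were higher, where 5.03% of all genes were, and 6 were lower, where 9.01% were, with 31 of 39 negative and a median log2 fold change of -0.13. With scaling by library size alone, which moved the median of all genes by 0.13, 21 of 39 were negative and the median was -0.01, and relative to all genes it was -0.14 under both scalings. The 6 were Psme4 (-0.72, SE 0.10, edgeR adjusted p = 0.00053), Psmb7 (-0.40), Psmd12 (-0.39), Psmd1 (-0.35), Psmd2 (-0.33) and Psmc3 (-0.30), and among them only Psme4 was called in all 20 alternative settings. The count was 8 without LL37 replicate 3, where 10.1% of all genes were lower. It was 2 without LL37+RAPA replicate 1 or control replicate 3, 3 without LL37+RAPA replicate 2 and 1 without LL37+RAPA replicate 3. For these last fits the shares of all genes are not given.

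Against control+RAPA, 1 was higher, where 8.20% of all genes were, and 9 were lower, where 10.4% were, with a median of -0.09. Psmb10 was the higher one (log2 0.61, SE 0.18, edgeR adjusted p = 0.031), and the lower ones were Psme4 (-0.67), Psmd4 (-0.48), Psmd6 (-0.47), Psmd12 (-0.42), Psmc3 (-0.40), Psmd1 (-0.36), Psmd2 (-0.36), Psmd7 (-0.34) and Psmb7 (-0.33). Of the 9, 6 encode 19S non-ATPase subunits, of which 11 were tested, and 0 alpha subunits, of which 7 were tested. A difference between the roles was not tested. The call of Psmb10 was lost without any one library of LL37+RAPA or control+RAPA skin, and the lower count was 3 without LL37+RAPA replicate 3 and 6 without control+RAPA replicate 1. Without LL37 replicate 3 the counts were again 1 and 9, with 11.2% and 11.6% of all genes called. Shares of all genes are not given for the other fits that left out a library. With scaling by library size alone the split was 6 higher and 2 lower, with 17.5% and 6.64% of all genes called, and the median was 0.10. That scaling moved the median of all genes by 0.19, and the median of the proteasome genes relative to it was -0.08 under both scalings.

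Psme4 was lower in LL37-injected skin with and without rapamycin. Its mean CPM was 108 ± 8.09 in control, 104 ± 1.71 in control+RAPA, 81.5 ± 9.35 in LL37 and 65.5 ± 4.51 in LL37+RAPA skin (SD, n = 3). Its interaction term did not pass the test (-0.26, SE 0.14, edgeR adjusted p = 0.291).

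Genes that act with the proteasome were described from lists by role, and their counts stand beside 21.0% of all genes called higher and 21.6% lower with LL37, and 12.4% higher and 11.8% lower in LL37+RAPA against LL37 skin. Of 7 tested assembly chaperones and regulators of the 20S core, 1 rose with LL37, and 0 were called in LL37+RAPA against LL37 skin. This was Pomp, the maturation factor of the core, which had a mean of 114 CPM in control, 143 CPM in LL37 and 114 CPM in LL37+RAPA skin (log2 0.32, edgeR adjusted p = 0.035, then -0.32, edgeR adjusted p = 0.051). Of 9 proteasome-bound receptors and ubiquitin enzymes, 1 rose and 1 fell with LL37 and 3 fell in LL37+RAPA against LL37 skin. Uchl5, a deubiquitinase of the 19S base, was at 26.5 CPM in control, 36.7 CPM in LL37 and 25.5 CPM in LL37+RAPA skin (log2 0.47 and -0.52, edgeR adjusted p = 0.0082 and 0.011). Ecpas, a scaffold that holds the core and the cap together, fell with LL37 (-0.53, edgeR adjusted p = 0.00033).

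Of 12 genes of the NRF1 pathway and the p97 segregase, 2 rose and 3 fell with LL37, and 0 rose and 2 fell in LL37+RAPA against LL37 skin. Nfe2l1, which encodes NRF1 itself, had means of 627 CPM in control, 598 CPM in control+RAPA, 391 CPM in LL37 and 429 CPM in LL37+RAPA skin. It fell with LL37 (log2 -0.68, SE 0.10, edgeR adjusted p = 0.00036), while the 31 genes of the 20S and 19S particle had a median of 0.10 in that comparison. A link between the level of Nfe2l1 and that of these genes was not tested. Nfe2l2, which encodes the related factor NRF2 of the oxidative stress response, rose with LL37 (0.73, edgeR adjusted p = 0.0061) and fell in LL37+RAPA against LL37 skin (-0.67, edgeR adjusted p = 0.018), with means of 56.0, 58.3, 92.8 and 58.1 CPM in control, control+RAPA, LL37 and LL37+RAPA skin. Rad23b, which carries ubiquitin-tagged proteins to the proteasome, rose with LL37 (0.32, edgeR adjusted p = 0.018) and fell in LL37+RAPA against LL37 skin (-0.32, edgeR adjusted p = 0.032). Ngly1, the enzyme that removes sugar chains from NRF1, fell by 0.39 with LL37 (edgeR adjusted p = 0.0091).

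Of 6 genes for ubiquitin and its activating enzymes, 1 rose and 1 fell with LL37, and 0 rose and 1 fell in LL37+RAPA against LL37 skin. Uba1, the main activating enzyme, had log2 fold changes of 0.25 and -0.37 (edgeR adjusted p = 0.043 and 0.016). Of 4 ubiquitin ligases of muscle wasting, 3 fell with LL37 and 3 rose in LL37+RAPA against LL37 skin. Trim63 (-6.27 and 3.48), Fbxo32 (-3.45 and 1.34) and Fbxo40 (-6.44 and 2.84) are expressed in muscle and moved with the sum of the muscle markers given above.

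Genes of the response to interferon gamma, the cytokine that induces Psmb10, were higher in LL37 skin in 9 of 12 cases and lower in 0, and lower in LL37+RAPA against LL37 skin in 10 of 12 cases and higher in 0, where 21.0% of all genes were higher in the first and 11.8% lower in the second comparison. The counts were 10 higher and 10 lower without LL37 replicate 3. Irf1, a transcription factor of that response, had log2 fold changes of 0.85 and -1.05 (edgeR adjusted p = 0.0053 and 0.0048). The summed level of the 12 genes was 1156 to 1181 CPM in control, 884 to 933 CPM in control+RAPA, 1583 to 2108 CPM in LL37 and 1096 to 1179.6 CPM in LL37+RAPA skin. A link between these genes and the level of Psmb10 was not tested. The interferon-inducible Psme1 and Psme2 were not called in either comparison.

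Other protein machines were taken for comparison. Their counts stand beside 21.0% of all genes called higher and 21.6% lower with LL37. In LL37+RAPA against LL37 skin these shares were 12.4% and 11.8%. Of 8 genes of the CCT chaperonin, 5 rose with LL37 (median log2 0.34) and 1 fell in LL37+RAPA against LL37 skin (median -0.26, with 8 of 8 negative). Of 75 cytosolic ribosomal protein genes, 4 rose with LL37 (median 0.08) and 4 rose in LL37+RAPA against LL37 skin (median 0.17), so their median there had the opposite sign to that of the proteasome genes. Of 36 complex I genes, 35 fell with LL37 (median -0.62) and 1 fell in LL37+RAPA against LL37 skin (median -0.04). Without LL37 replicate 3, 7 CCT genes rose with LL37 and 7 fell in LL37+RAPA against LL37 skin, 7 ribosomal protein genes rose and 3 rose, and 30 complex I genes fell and 4 fell. In the other lists that setting moved the counts by at most 2 genes. The differences between these lists and the proteasome genes were not tested.

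The proteasome genes were not grouped on the genome. They lay on 16 chromosomes, with up to 8 on 1 chromosome (11), and the closest pairs were Psmb5 and Psmb11 (3411 bases apart) and Psme1 and Psme2 (5912 bases apart), both on chromosome 14. Over the 12 libraries, which share the group differences above, Pearson's r of log2 CPM with the mean of the 31 constitutive subunits was highest for Psma3 (0.97), Psmc1 (0.93) and Psmd3 (0.91). It was 0.34 for Psmb10, 0.32 for Psmd9, 0.31 for Psmd4, 0.22 for Psme2 and -0.17 for Psmd5, and these genes followed the rest least. Each constitutive subunit was left out of the mean with which it was compared.

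Since NRF1 binds the antioxidant response element, the promoters were searched for its core, TGACNNNGC, on both strands. RefSeq windows of GRCm38.p6, from 250 bases before to 50 after the start, were present for 34 of the 41 genes, with 37 windows in all. The core was in 6 of the 37 windows (16.2%), 1 for each of 6 genes, and in 12.4% of 32851 windows of the same length. The 6 were Psmb5, Psmb6, Psmc6, Psmd9, Psmd12 and Psme4. Of these, Psmc6, Psmd12 and Psme4 were called lower in LL37+RAPA against LL37 skin, as were 12 of all 39 tested proteasome genes (30.8%). A link between the match and these calls was not tested. The CCAAT box was in 13 of the 37 windows (35.1%, against 37.4% of all windows) and the ETS core GGAAG in 33 (89.2%, against 71.4%), and neither of these can lie whole within a match of the first. The stretches before the start of 4 genes are shown, 2 that were called lower with rapamycin in LL37 skin and 2 constitutive catalytic subunits that were not called by edgeR with all libraries, each 5′ to 3′ on the strand of the gene with the matched core or its reverse complement in capitals. They are chr11:107479278-107479483 (plus strand), chr14:45329574-45329787 (plus strand), chr14:54618023-54618245 (minus strand) and chr11:70525107-70525356 (plus strand), in the order given.
Psmd12: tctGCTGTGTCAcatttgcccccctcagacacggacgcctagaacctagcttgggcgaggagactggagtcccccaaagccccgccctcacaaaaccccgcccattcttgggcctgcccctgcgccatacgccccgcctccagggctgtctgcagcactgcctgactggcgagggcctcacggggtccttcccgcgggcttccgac
Psmc6: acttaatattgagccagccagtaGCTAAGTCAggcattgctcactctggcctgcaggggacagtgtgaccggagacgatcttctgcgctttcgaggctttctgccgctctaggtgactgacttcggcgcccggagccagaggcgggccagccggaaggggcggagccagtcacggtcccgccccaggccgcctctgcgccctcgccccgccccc
Psmb5: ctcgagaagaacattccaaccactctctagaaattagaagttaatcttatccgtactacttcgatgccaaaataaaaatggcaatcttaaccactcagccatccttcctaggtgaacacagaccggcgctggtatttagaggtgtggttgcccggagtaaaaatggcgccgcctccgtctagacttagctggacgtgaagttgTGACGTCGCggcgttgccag
Psmb6: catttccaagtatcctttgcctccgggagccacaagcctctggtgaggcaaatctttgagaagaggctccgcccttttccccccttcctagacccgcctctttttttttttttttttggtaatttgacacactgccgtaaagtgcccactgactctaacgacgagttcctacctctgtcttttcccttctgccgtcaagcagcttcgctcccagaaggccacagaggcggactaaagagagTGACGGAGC
The match lay near the far end of the window in Psmd12 and Psmc6 and near the start of the gene in Psmb5 and Psmb6. Of the 2 genes with a match that are not shown, Psme4, also called lower, had it at position -7 from the start. Psmd9, which was not called, had it at -31. A match is a description of the letters and says nothing of binding.

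Some values share reads with other genes or could do so. Exons of Psma4, Psma5, Psmb7, Psmc3, Psmd1, Psmd3, Psmd9, Psmd13 and Psme1 overlap a gene on the other strand in the annotation, those of Psmd1 and Psmb5 also one on the same strand (Gm21972 and Mir686), and the sources used here do not state whether strand was used in counting. Processed pseudogenes named for Psmb5, Psmb6 and Psmb7 had 0 to 6 counts over all libraries.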

How the data were processed

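Total RNA of mouse skin was sequenced in 12 libraries. The authors deposited 1 table of raw read counts per gene. The submitters' processing notes list HISAT2 2.0.5, StringTie 1.3.3b, featureCounts 1.5.0-p3 and DESeq2 1.16.1 with build mm10, the study's methods name HTSeq, and which counter made the table is not stated. Of 52636 gene IDs, 52403 matched GENCODE M21 (GRCm38), which gave names, positions and lengths. Counts are limited by sampling noise at the depths given above, which covers counting error only.

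Counts were filtered with filterByExpr by group, scaled by TMM and fitted with edgeR 4.0.16 (R 4.3.3, quasi-likelihood) over 4 groups of 3 libraries. The 6 contrasts were tested two-sided, with Benjamini-Hochberg adjustment over 17993 genes. Genes were called at an adjusted p under 0.05, or also with an absolute log2 fold change above 1. The study used the same fold limit with a p under 0.05. It does not state beside its gene lists whether that p was adjusted. The study describes the libraries of a group as 3 separate biological samples. Replicate numbers were not treated as pairs. Genes with values in every library were, for each of LL37 against control, LL37+RAPA against LL37 and the interaction, the 3 with the smallest p in each direction, and the catalytic subunits and activators. Called genes of the related lists were named by smallest p, up to 4 a list, and other genes named in counts were chosen after their values were seen. Alternatives were DESeq2 1.42.0, other scalings and filters, fewer groups, a replicate block and each library left out. Scripts were tested on simulated counts. The genes and lists were chosen with earlier results of these data known. Some genes of the related lists are not reported here. Summing Psme2b into Psme2 was chosen after seeing the data.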

Additional observations from a re-analysis of the deposited data

How the results depend on the processing

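Without each library in turn, the direction of the median log2 fold change of the proteasome genes held in LL37 against control (0.08 to 0.22), LL37+RAPA against LL37 (-0.31 to -0.19), LL37+RAPA against control (-0.15 to -0.10), LL37+RAPA against control+RAPA (-0.13 to -0.06) and the interaction (-0.29 to -0.14), but not in control+RAPA against control (-0.06 to 0.01), where it was near 0. Counts of called genes without each library ran from 2 to 14 higher and 1 to 2 lower in LL37 against control, 1 to 25 lower in LL37+RAPA against LL37, 1 to 8 lower in LL37+RAPA against control, 0 to 1 higher and 3 to 10 lower in LL37+RAPA against control+RAPA, and 0 to 9 lower in the interaction. Shares of all genes called in these fits are given only for the one without LL37 replicate 3. With scaling by library size alone the counts in LL37 against control were 12 higher and 1 lower (25.5% and 17.8% of all genes). There were 6 lower in LL37+RAPA against LL37 (10% of all genes) and 2 lower in LL37+RAPA against control (6.97%). In LL37+RAPA against control+RAPA 6 were higher and 2 lower (17.5% and 6.64%), and the median reversed to 0.10. The medians were -0.01 in LL37+RAPA against control and -0.09 in the interaction under that scaling. With every gene of at least 1 count kept, the lower counts were 1 in LL37+RAPA against LL37, 2 in LL37+RAPA against control and 5 in LL37+RAPA against control+RAPA. The share of all genes is not given for that filter. With the groups compared fitted alone, 2 were higher and 1 lower in LL37 against control (16% and 17.3% of all genes). In LL37+RAPA against LL37 1 was lower (6.95% of all genes). The fold limit gave 0 in every comparison. DESeq2 gave 1 lower in control+RAPA against control and 1 lower in the interaction, with 0.378% and 3.75% of all genes lower. The cause of these changes was not tested. The median level was 62.5 CPM per kb of the longest transcript, and without the muscle genes the share of counts was 0.463% in control and 0.446% in control+RAPA. Between libraries of the same replicate number, r of the deviations from the group mean ran from -0.19 to 0.26. Libraries of different numbers were not compared, so these values cannot show whether the numbers mark pairs. A replicate block gave 6 higher and 2 lower in LL37 against control (20.4% and 20.9% of all genes). It gave 10 lower in LL37+RAPA against LL37 (10.2% of all genes). With 3 libraries a group, the number of called proteasome genes in LL37+RAPA against LL37 changed when single libraries were left out. Whether the share of all genes changed alike is not shown for most of these fits.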
